A study of Homo sapiens with 30 samples.

Results

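The genes described here are 10 chaperones and co-chaperones of the endoplasmic reticulum (ER): HSPA5, HSP90B1, HYOU1, CALR, CANX, DNAJB11, SDF2L1, CRELD2, MANF and DNAJC3. They were taken by symbol from the 58278 Ensembl genes counted in each of 30 mRNA libraries, and all 10 were found and passed the filter on low counts. The libraries came from wt HEK293 cells (a cell line derived from human embryonic kidney), sorted for mCherry at 48 h after transfection with 1 plasmid. In 5 groups of 3 libraries the plasmid held a reporter, an EGFP(mutant)-mCherry fusion, together with a missense-correcting tRNA (mc-tRNA). These were EGFP(R65) with Ser-tRNA_Arg(CCG), EGFP(R96Q) with Arg-tRNA_Gln(CUG), EGFP(R96C) with Arg-tRNA_Cys(GCA), EGFP(R96H) with Arg-tRNA_His(GUG) and EGFP(R96W) with Arg-tRNA_Trp(CCA), where the name gives the amino acid carried, the tRNA and its anticodon. The other 5 groups of 3 held the same reporters alone, and the 3 libraries of a group are described as independent replicates. Each mc-tRNA was set against its own reporter alone, which asks how the tRNA affects mRNA levels. Expression was by transient transfection, so only cells that took up the plasmid and made mCherry were measured. In bulk RNA, fewer cells with a high level and less RNA per cell cannot be told apart.

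Proteins that enter the ER fold with the help of these factors. HSPA5 (BiP, the ER member of the HSP70 family) binds exposed hydrophobic stretches in cycles driven by ATP; J-domain co-chaperones such as DNAJB11 and DNAJC3 stimulate its ATPase, and HYOU1 exchanges its nucleotide. CALR and CANX are lectins that hold glycoproteins through a trimmed sugar, CALR as a soluble protein and CANX as a membrane protein whose folding domain faces the lumen. When unfolded proteins accumulate, the sensors ATF6, ERN1 (IRE1) and EIF2AK3 (PERK) start the unfolded protein response, and genes of this kind are among its classical targets in mammalian cells.

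Promoter windows of all 10 genes were available in the RefSeq table for GRCh38.p14, each running from 250 bases before the annotated start to 50 bases after it. The ER stress response element, CCAAT followed by any 9 bases and CCACG, is bound by NF-Y at one end and ATF6 at the other in mammalian cells. On either strand it was present in 5 of the 10 genes, HSPA5, HSP90B1, CALR, CANX and CRELD2, against 0.0916% of the 27305 genes in the table. The related ERSE-II, ATTGG, any base, then CCACG, was present in HYOU1 and SDF2L1, against 0.0696% of genes. DNAJB11, MANF and DNAJC3 held neither element. The ER stress response element was also in 2 of 30 other ER folding factors, 0 of 16 genes of ER-associated degradation and 1 of 14 unfolded protein response genes with a window. ERSE-II was in 0, 1 (HERPUD1) and 0 of these. All 10 chaperone genes rose in 3 of the 5 comparisons below, and a part of the elements in this was not tested. The stretches with these elements are shown as a description. They are written 5′ to 3′ on the gene's strand with 15 bases on each side, and the capitals mark the element or its reverse complement.
HSPA5: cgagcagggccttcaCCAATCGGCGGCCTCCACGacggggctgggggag
HSP90B1 distal: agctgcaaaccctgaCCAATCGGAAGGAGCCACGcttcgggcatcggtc
HSP90B1 proximal: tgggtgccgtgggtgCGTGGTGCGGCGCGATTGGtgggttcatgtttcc
CALR: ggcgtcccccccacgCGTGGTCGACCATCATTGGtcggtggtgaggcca
CANX: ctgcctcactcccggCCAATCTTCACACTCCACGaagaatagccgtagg
CRELD2: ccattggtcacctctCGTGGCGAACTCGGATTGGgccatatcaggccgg
HYOU1 distal: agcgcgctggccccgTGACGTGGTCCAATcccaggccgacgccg
HYOU1 proximal: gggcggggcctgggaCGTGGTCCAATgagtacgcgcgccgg
SDF2L1: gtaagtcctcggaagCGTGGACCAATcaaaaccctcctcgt
The HSPA5 stretch lies on the minus strand at chr9:125241376-125241424, and its element spans bases 66 to 48 before the start. The HSP90B1 stretches, plus strand, are chr12:103930201-103930249 and chr12:103930306-103930354. The CALR stretch, plus strand, is chr19:12938369-12938417. That of CANX, plus strand, is chr5:179698763-179698811 and falls in 3 of the 4 windows listed for the gene. CRELD2 and SDF2L1 are both on the plus strand of chromosome 22, with stretches at chr22:49918539-49918587 and chr22:21642099-21642139. The HYOU1 stretches, minus strand, are chr11:119057365-119057408 and chr11:119057259-119057299. The distal HYOU1 stretch also holds TGACGTGG, the core bound by ATF6 and XBP1, which overlaps its ERSE-II and occurs in 0.927% of genes. TGACGTGG was also in 3 of 30 other ER folding factors and 1 of 16 genes of ER-associated degradation. The short core CCACG was in 9 of the 10 genes, all but DNAJB11, against 42.1% of all genes. It was also in 22 of 30 other ER folding factors and 13 of 16 genes of ER-associated degradation. Of unfolded protein response genes 9 of 14 held it, and of cytosolic heat shock genes 7 of 13. The heat shock element, 3 alternating GAA and TTC units with 2 bases between neighbours, was in 0 of the 10 windows, against 0.608% of all genes and 6 of 13 cytosolic heat shock genes. These matches describe the letters of the windows and say nothing of binding in these cells. As genes of this kind are classical targets of the unfolded protein response, the share of the 10 with an ER stress response element could be foreseen. It was not tested.

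Library totals were 39017548 to 55446962 gene counts, so that a count of 0 would allow up to 0.0541 to 0.0769 CPM, the count scaled to the library total. Levels below are CPM with that total multiplied by the TMM normalisation factor, except those of the cell markers, which use the library total alone. Changes are log2 fold changes ± SE from 1 edgeR quasi-likelihood fit over all 30 libraries, and a gene is called, and said to rise or fall, at a Benjamini-Hochberg adjusted p under 0.05 over 22321 genes. All 6 EGFP(R65) libraries held 0 spike-in (ERCC) counts and the 24 EGFP(R96) libraries held 10 to 106. Of the HEK293 markers KRT8, KRT18, VIM, NEFM and INA, all 5 were detected in every library. The summed level of 14 stromal, blood, hepatocyte and keratinocyte markers was 33.8 to 35.7 CPM with Ser-tRNA_Arg(CCG), against 27.1 to 28.8 CPM with EGFP(R65) alone. It was 39.4 to 40.7 CPM with Arg-tRNA_Cys(GCA), against 21.3 to 23.7 CPM with EGFP(R96C) alone, and 18.8 to 22.5 CPM with Arg-tRNA_Trp(CCA), against 19.1 to 21.9 CPM with EGFP(R96W) alone. COL1A1 had the highest median of these markers, 20.3 CPM, and ranged from 15.2 to 34.9 CPM over all libraries. The hepatocyte marker ALB had a median of 0.303 CPM but reached 10.2 CPM. PTPRC, CD3E, HBB, KRT5 and KRT14 had a median of 0. The part of these markers in the results below was not tested. Libraries were prepared strand-specifically, but whether counting used the strand is not given in the sources used here. CRELD2 shares 168 exon bases with ALG12 on the opposite strand, and DNAJB11 shares 381 with TBCCD1, so reads from these pairs cannot be told apart there without the strand, and both levels are uncertain.

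All 10 chaperone mRNAs rose with Ser-tRNA_Arg(CCG), Arg-tRNA_Cys(GCA) and Arg-tRNA_Trp(CCA), and none was called with Arg-tRNA_Gln(CUG) or Arg-tRNA_His(GUG); CRELD2 lost its call with Arg-tRNA_Cys(GCA) when library totals replaced TMM factors. Over all genes, 26.6% rose and 30.7% fell with Ser-tRNA_Arg(CCG), 30.2% rose and 30.5% fell with Arg-tRNA_Cys(GCA), and 20.7% rose and 21.7% fell with Arg-tRNA_Trp(CCA). The median change of the 10 genes was 1.39 with Ser-tRNA_Arg(CCG), 1.70 with Arg-tRNA_Cys(GCA) and 1.59 with Arg-tRNA_Trp(CCA) on the log2 scale, beside medians of -0.02, -0.04 and -0.03 over all genes. With Arg-tRNA_Gln(CUG) and Arg-tRNA_His(GUG) the medians of the 10 were 0.13 and 0.07. The 10 genes together took 0.768 to 0.847% of the counts of a library with Ser-tRNA_Arg(CCG), 1.14 to 1.205% with Arg-tRNA_Cys(GCA) and 0.879 to 1.013% with Arg-tRNA_Trp(CCA). In the reporter-alone, Arg-tRNA_Gln(CUG) and Arg-tRNA_His(GUG) libraries this share was 0.326 to 0.412%.

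**Figure D1:**
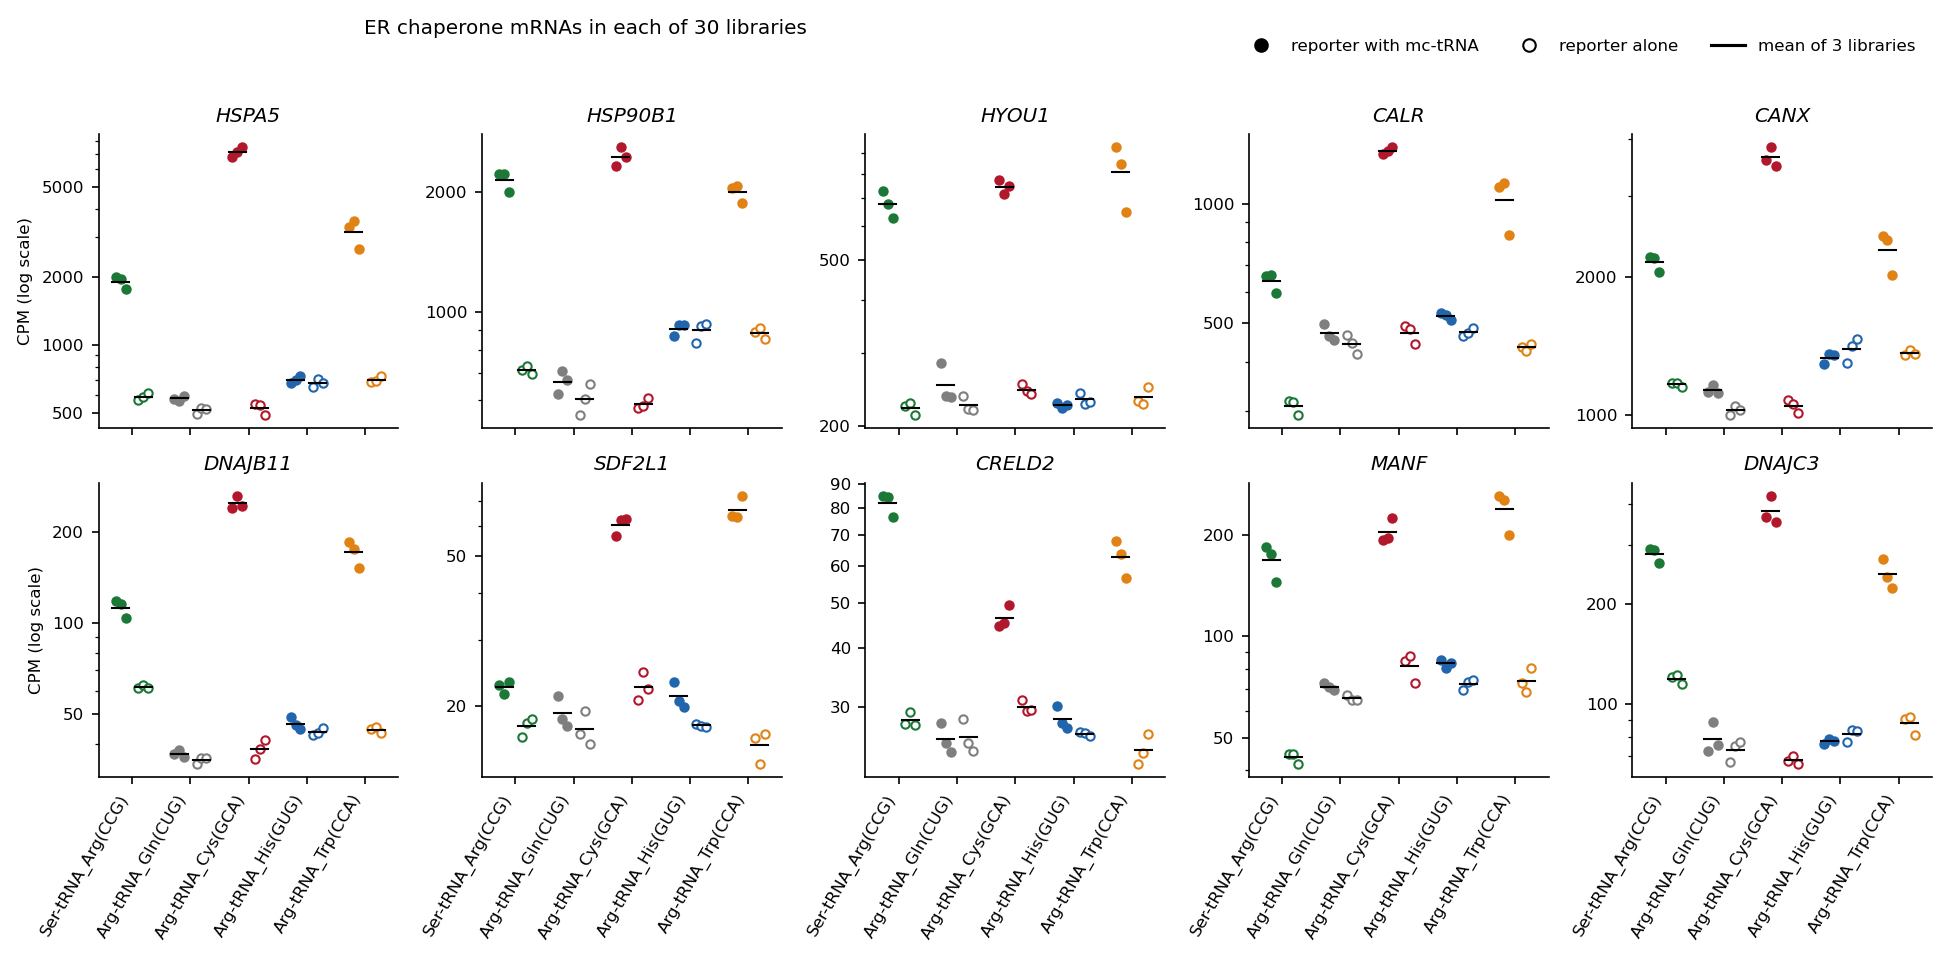
Level of each of the 10 chaperone mRNAs in every library, in CPM on a log scale. Filled points are libraries of a reporter with the mc-tRNA named on the x axis, open points are libraries of the same reporter alone, and bars are means of 3 libraries. Filled points lie above all open points for every gene with Ser-tRNA_Arg(CCG), Arg-tRNA_Cys(GCA) and Arg-tRNA_Trp(CCA). They also do for HSPA5, CANX, DNAJB11 and MANF with Arg-tRNA_Gln(CUG), and for CALR, SDF2L1, CRELD2 and MANF with Arg-tRNA_His(GUG), without a call. For HSPA5 the Arg-tRNA_His(GUG) points, at 678.2 to 724.1 CPM, overlap those of EGFP(R96H) alone, at 648.3 to 705.2 CPM. By library totals CRELD2 with Arg-tRNA_Cys(GCA) was not called. How many of all genes had groups apart in this way was not counted. Of all genes, 26.6% rose with Ser-tRNA_Arg(CCG), 30.2% with Arg-tRNA_Cys(GCA) and 20.7% with Arg-tRNA_Trp(CCA).

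HSPA5 changed most with Arg-tRNA_Cys(GCA). It had 6767, 7108 and 7483 CPM in the libraries with Arg-tRNA_Cys(GCA), against 545.9, 538.5 and 488.1 CPM with EGFP(R96C) alone, a change of 3.76 ± 0.08 or 13.6-fold (adjusted p = 3.22e-30). With Arg-tRNA_Trp(CCA) it had 3307, 3516 and 2666 CPM, against 679.9, 690.6 and 726.8 CPM with EGFP(R96W) alone, which is 2.18 ± 0.07 (adjusted p = 1.98e-22). Every library with either tRNA stood well above all libraries of its reporter alone. With Ser-tRNA_Arg(CCG) the level was 1988, 1950 and 1758 CPM, against 566.2, 586.8 and 611.5 CPM with EGFP(R65) alone, 1.69 ± 0.07 (adjusted p = 7.25e-20). The groups did not overlap here either.

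Of the J-domain co-chaperones of HSPA5, DNAJB11 and DNAJC3 had the same order of changes. For DNAJC3 the difference between Ser-tRNA_Arg(CCG) and Arg-tRNA_Trp(CCA) was not called (-0.24 ± 0.11, adjusted p = 0.0632, edgeR). DNAJB11 (ERdj3), which binds unfolded substrates and passes them to HSPA5, had 240.9, 263.9 and 244.3 CPM with Arg-tRNA_Cys(GCA), against 35.71, 38.43 and 41.06 CPM with EGFP(R96C) alone, a 6.5-fold rise (2.70 ± 0.07, adjusted p = 8.03e-28). Its level was 186.3, 176.3 and 153.1 CPM with Arg-tRNA_Trp(CCA), against 44.72, 45.29 and 43.28 CPM with EGFP(R96W) alone. With Ser-tRNA_Arg(CCG) it was 118.4, 115.7 and 104.2 CPM, against 61.37, 62.38 and 61.22 CPM with EGFP(R65) alone. The rises were 1.95 ± 0.07 with Arg-tRNA_Trp(CCA) (adjusted p = 1.98e-22) and 0.87 ± 0.06 with Ser-tRNA_Arg(CCG) (adjusted p = 7.74e-14), and no groups overlapped. DNAJC3 (p58IPK) combines a J domain with tetratricopeptide repeats. Its level was 365.3, 422.2 and 352.6 CPM with Arg-tRNA_Cys(GCA), against 67.45, 69.78 and 66.34 CPM with EGFP(R96C) alone (2.49 ± 0.08, adjusted p = 7.61e-25). With Arg-tRNA_Trp(CCA) it was 272.7, 240.9 and 222.9 CPM, against 90.5, 91.39 and 81.03 CPM with EGFP(R96W) alone (1.49 ± 0.08, adjusted p = 1.66e-17). Libraries with Ser-tRNA_Arg(CCG) had 292.9, 290.7 and 265.9 CPM, against 120.6, 122.6 and 114.9 CPM with EGFP(R65) alone (1.25 ± 0.08, adjusted p = 5.88e-16). All libraries with these 3 tRNAs were above those of their reporter alone.

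SDF2L1, a soluble ER protein found in complex with DNAJB11, had another order of changes. Its highest level came with Arg-tRNA_Trp(CCA), at 63.66, 63.25 and 72.07 CPM, against 16.44, 14.1 and 16.87 CPM with EGFP(R96W) alone (2.07 ± 0.09, adjusted p = 4.62e-20). With Arg-tRNA_Cys(GCA) it had 56.63, 62.22 and 62.68 CPM, against 20.81, 24.62 and 22.16 CPM with EGFP(R96C) alone (1.43 ± 0.08, adjusted p = 6.47e-17). With Ser-tRNA_Arg(CCG) it had 22.78, 21.53 and 23.23 CPM, against 16.55, 18.05 and 18.56 CPM with EGFP(R65) alone. That 1.27-fold rise (0.35 ± 0.09, adjusted p = 0.000876) was the smallest of the 30 called changes, and the groups still did not overlap. HYOU1 (GRP170), the nucleotide exchange factor of HSPA5, rose by 1.61 to 1.78 in the 3 comparisons. It had 730.1, 680.2 and 629.2 CPM with Ser-tRNA_Arg(CCG), against 223.2, 227.2 and 212.9 CPM with EGFP(R65) alone (1.62 ± 0.08, adjusted p = 2.66e-17). With Arg-tRNA_Cys(GCA) it had 772.4, 715.7 and 748.3 CPM, against 252.1, 243.2 and 238.7 CPM with EGFP(R96C) alone (1.61 ± 0.08, adjusted p = 5.24e-18). With Arg-tRNA_Trp(CCA) it had 926.5, 847.6 and 648.5 CPM, against 229.4, 225.8 and 248.1 CPM with EGFP(R96W) alone (1.78 ± 0.08, adjusted p = 5.41e-18). The third Arg-tRNA_Trp(CCA) library was the lowest of its group for HYOU1 and for 8 of the other genes, and the highest for SDF2L1.

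HSP90B1 (GRP94), the ER member of the HSP90 family, had 2324, 2588 and 2452 CPM with Arg-tRNA_Cys(GCA), against 572.5, 578.9 and 606.5 CPM with EGFP(R96C) alone (2.07 ± 0.07, adjusted p = 1.5e-24). Its level with Ser-tRNA_Arg(CCG) was 2218, 2218 and 1993 CPM, against 711.8, 727.3 and 695.6 CPM with EGFP(R65) alone (1.59 ± 0.07, adjusted p = 4.41e-20). Libraries with Arg-tRNA_Trp(CCA) had 2051, 2072 and 1876 CPM, against 886.4, 906.7 and 854.1 CPM with EGFP(R96W) alone (1.18 ± 0.07, adjusted p = 1.26e-16). The groups with these tRNAs lay between 1876 and 2588 CPM, and none overlapped with its reporter alone.

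Both lectins rose, with fold changes below that of HSPA5 in each of the 3 comparisons. CANX had 3606, 3835 and 3500 CPM with Arg-tRNA_Cys(GCA), against 1081, 1058 and 1012 CPM with EGFP(R96C) alone (1.80 ± 0.06, adjusted p = 7.92e-24). With Ser-tRNA_Arg(CCG) it had 2216, 2205 and 2048 CPM, against 1179, 1178 and 1153 CPM with EGFP(R65) alone (0.88 ± 0.06, adjusted p = 1.16e-14). With Arg-tRNA_Trp(CCA) it had 2459, 2407 and 2021 CPM, against 1357, 1385 and 1360 CPM with EGFP(R96W) alone (0.75 ± 0.06, adjusted p = 2.2e-12). These groups did not overlap. CALR averaged 1358 ± 27.1 CPM with Arg-tRNA_Cys(GCA), against 472.6 ± 24.8 CPM with EGFP(R96C) alone (1.52 ± 0.07, adjusted p = 1.88e-19). The averages were 1019 ± 162 CPM with Arg-tRNA_Trp(CCA), against 434.9 ± 8.87 CPM with EGFP(R96W) alone (1.23 ± 0.07, adjusted p = 7.9e-16), and 637.8 ± 37.4 CPM with Ser-tRNA_Arg(CCG), against 309.1 ± 13.5 CPM with EGFP(R65) alone (1.04 ± 0.07, adjusted p = 1.88e-14; SD, n = 3 each, edgeR). The spread of CALR with Arg-tRNA_Trp(CCA) came from the third library, at 832.4 CPM beside 1099 and 1127 CPM, which was still above every EGFP(R96W) library.

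CRELD2 and MANF, small soluble ER proteins that can be secreted under stress, had, among the 3 tRNAs with which the genes rose, their largest change with Ser-tRNA_Arg(CCG) and their smallest with Arg-tRNA_Cys(GCA). MANF, which binds HSPA5, had 183.6, 175.8 and 145.1 CPM with Ser-tRNA_Arg(CCG), against 44.75, 44.78 and 41.9 CPM with EGFP(R65) alone (1.94 ± 0.09, adjusted p = 1.69e-18). With Arg-tRNA_Trp(CCA) it had 260.9, 253.3 and 200.2 CPM, against 72.59, 68.35 and 80.64 CPM with EGFP(R96W) alone (1.69 ± 0.09, adjusted p = 5.96e-17). With Arg-tRNA_Cys(GCA) it had 192.8, 196 and 224.8 CPM, against 84.62, 87.33 and 72.85 CPM with EGFP(R96C) alone (1.33 ± 0.09, adjusted p = 2.44e-15). No group overlapped with its reporter alone, while the levels with Arg-tRNA_Trp(CCA) and Arg-tRNA_Cys(GCA) overlapped each other. CRELD2 had 84.85, 84.3 and 76.32 CPM with Ser-tRNA_Arg(CCG), against 27.59, 29.18 and 27.45 CPM with EGFP(R65) alone (1.54 ± 0.07, adjusted p = 1.6e-18). With Arg-tRNA_Trp(CCA) it had 68.04, 63.68 and 56.56 CPM, against 22.64, 23.8 and 26.2 CPM with EGFP(R96W) alone (1.37 ± 0.07, adjusted p = 6.09e-17). With Arg-tRNA_Cys(GCA) it had 44.65, 45.35 and 49.59 CPM, against 31, 29.41 and 29.51 CPM with EGFP(R96C) alone (0.63 ± 0.07, adjusted p = 2.38e-09). The groups were apart in each case, but the last change depended on the scaling. TMM factors of the Arg-tRNA_Cys(GCA) libraries were 0.714 to 0.730, and with library totals the median change of all genes was -0.587 in that comparison and -0.161 with Arg-tRNA_Trp(CCA). CRELD2 then changed by 0.09 with Arg-tRNA_Cys(GCA) (adjusted p = 0.273), which was 0.68 above the median of all genes, as it was with TMM factors.

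**Figure D2:**
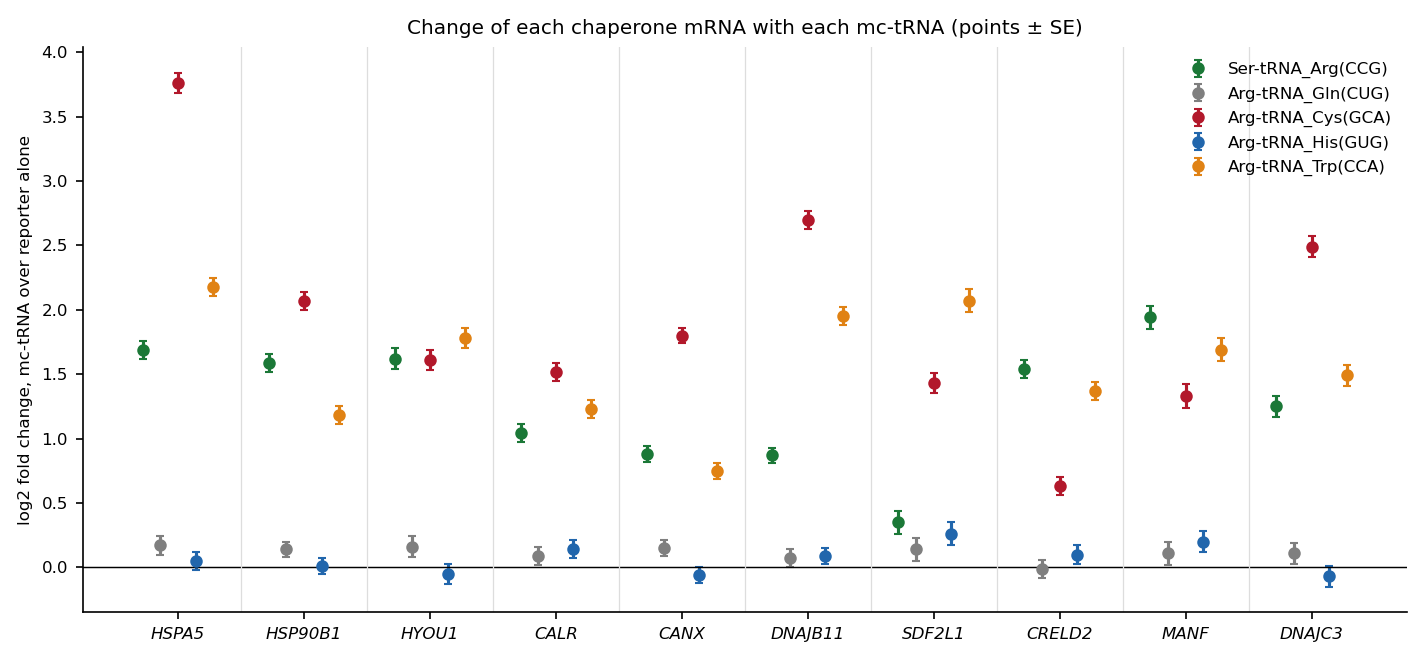
Log2 fold change of each chaperone mRNA with each mc-tRNA over its reporter alone, with bars of ± 1 SE. HSPA5 with Arg-tRNA_Cys(GCA) stands highest at 3.76, the order of the tRNAs differs between genes, and the Arg-tRNA_Gln(CUG) and Arg-tRNA_His(GUG) points lie between -0.07 and 0.26. With library totals CRELD2 with Arg-tRNA_Cys(GCA) would stand at 0.09.

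With Arg-tRNA_Gln(CUG) the 10 changes ran from -0.01 (CRELD2) to 0.17 (HSPA5), and 0 of 10 were called by edgeR or by DESeq2, where 0.273% of all genes rose and 0.278% fell. At an unadjusted p under 0.05, 3 of the 10 genes and 2270 of all genes passed. HSPA5 had 575.7, 563.9 and 593.3 CPM with Arg-tRNA_Gln(CUG), against 492.3, 524 and 520.9 CPM with EGFP(R96Q) alone. Those groups did not overlap, although the change of 0.17 ± 0.07 was not called (adjusted p = 0.363, edgeR). The groups of CANX, DNAJB11 and MANF did not overlap in this comparison either. With Arg-tRNA_His(GUG) the changes ran from -0.07 (DNAJC3) to 0.26 (SDF2L1), and 0 of 10 were called by edgeR or by DESeq2, where 1.56% of all genes rose and 0.950% fell. Here 2 of the 10 genes and 3629 of all genes had an unadjusted p under 0.05. SDF2L1 had 23.24, 20.6 and 19.95 CPM with Arg-tRNA_His(GUG), against 18, 17.72 and 17.67 CPM with EGFP(R96H) alone, and MANF had 85.25, 80.67 and 83.51 CPM, against 69.53, 73.33 and 74.23 CPM. Neither pair of groups overlapped, at changes of 0.26 ± 0.09 (adjusted p = 0.106) and 0.20 ± 0.08 (adjusted p = 0.22, edgeR). Those of CALR and CRELD2 did not overlap either. For both tRNAs, how many of all genes had groups apart was not counted. In a fit of only the 6 libraries with EGFP(R96H), SDF2L1, MANF and CALR were called with Arg-tRNA_His(GUG). Their changes were 0.26, 0.21 and 0.15 (adjusted p = 0.0227, 0.0108 and 0.0409, edgeR).

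The mc-tRNA effects differed between reporters for all 10 genes in an F-test within the fit, where 72.5% of all genes were called. Each mc-tRNA was measured with its own reporter, so tRNA and reporter cannot be told apart in the differences here and below. Differences that involve Ser-tRNA_Arg(CCG) also set EGFP(R65) libraries against EGFP(R96) libraries. There a possible batch cannot be told apart either. Of 100 tests of a gene between a pair of mc-tRNAs, 80 were called. Arg-tRNA_Gln(CUG) and Arg-tRNA_His(GUG) differed for 0 of the 10 genes by edgeR or DESeq2, with 1 at an unadjusted p under 0.05, against 0.811% of all genes called. Arg-tRNA_Cys(GCA) and Arg-tRNA_Trp(CCA) each had a higher effect than Arg-tRNA_Gln(CUG) and Arg-tRNA_His(GUG) for all 10. Ser-tRNA_Arg(CCG) was higher than either for 9, all but SDF2L1. For these pairs, the shares of all genes called were 50.2% for Arg-tRNA_Cys(GCA) and 25.3% for Arg-tRNA_Trp(CCA) with Arg-tRNA_Gln(CUG), and 48.2% and 22.8% with Arg-tRNA_His(GUG). They were 44.6% for Ser-tRNA_Arg(CCG) with Arg-tRNA_Gln(CUG) and 41.7% with Arg-tRNA_His(GUG).

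Among the 3 tRNAs with which the genes rose, the size of the effect depended on the gene. HSPA5, HSP90B1, CALR, CANX, DNAJB11 and DNAJC3 rose more with Arg-tRNA_Cys(GCA) than with Arg-tRNA_Trp(CCA), whereas SDF2L1, CRELD2 and MANF rose less, and HYOU1 was not called (43.7% of all genes called). The difference was 1.59 ± 0.10 for HSPA5 (adjusted p = 2.75e-15), 1.05 ± 0.08 for CANX (adjusted p = 1.74e-12) and 1.00 ± 0.11 for DNAJC3 (adjusted p = 1.03e-09). It was -0.74 ± 0.10 for CRELD2 (adjusted p = 3.03e-07) and -0.64 ± 0.12 for SDF2L1 (adjusted p = 2.65e-05). The HYOU1 difference was -0.18 with a 95% interval of -0.42 to 0.06, and without the third Arg-tRNA_Trp(CCA) library it was -0.31 and called (adjusted p = 0.0055). The CALR difference, 0.29 ± 0.10 (adjusted p = 0.0179), fell to 0.17 without that library (adjusted p = 0.0896). It also lost its call without any 1 of the Arg-tRNA_Cys(GCA) libraries or without replicate 2 or replicate 3 of EGFP(R96C) (0.24 to 0.26), and it turned to -0.12 with library totals, which was 0.31 above the difference of the all-gene medians. The MANF difference of -0.36 ± 0.12 (adjusted p = 0.0131) was -0.29 and not called without the first Arg-tRNA_Trp(CCA) library (adjusted p = 0.0534).

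Ser-tRNA_Arg(CCG) had a smaller effect than Arg-tRNA_Cys(GCA) for 7 genes and a larger one for CRELD2 (0.91 ± 0.10, adjusted p = 2.34e-09) and MANF (0.61 ± 0.12, adjusted p = 4.97e-05), where 56.5% of all genes were called. Among the 7, HSPA5 differed by -2.07 ± 0.10 (adjusted p = 4.91e-19) and DNAJB11 by -1.83 ± 0.09 (adjusted p = 1.18e-18). HSP90B1 and CALR, at -0.48 each, turned to 0.03 with library totals, and stood 0.49 and 0.50 below the difference of the all-gene medians by both scalings. For HYOU1 the difference was 0.01 (95% interval -0.23 to 0.25). Its sign turned without the third EGFP(R65), the first Ser-tRNA_Arg(CCG) or the first EGFP(R96C) library, with -0.04 as the lowest value. Against Arg-tRNA_Trp(CCA), the effect of Ser-tRNA_Arg(CCG) was lower for SDF2L1 (-1.72 ± 0.12, adjusted p = 1.17e-13), DNAJB11 (-1.08 ± 0.09, adjusted p = 7e-12) and HSPA5 (-0.49 ± 0.10, adjusted p = 0.000116), and higher for HSP90B1 (0.41 ± 0.09, adjusted p = 0.000359), where 45.3% of all genes were called. The other 6 were not called, with differences from -0.24 for DNAJC3 to 0.25 for MANF. Leaving out the third Arg-tRNA_Trp(CCA) library brought calls for HYOU1 (-0.31), CALR (-0.32) and DNAJC3 (-0.31), and DNAJC3 was also called without the second EGFP(R96W) library (-0.28). MANF was called without the third Ser-tRNA_Arg(CCG) library (0.34) or the first Arg-tRNA_Trp(CCA) library (0.32).

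**Figure D3:**
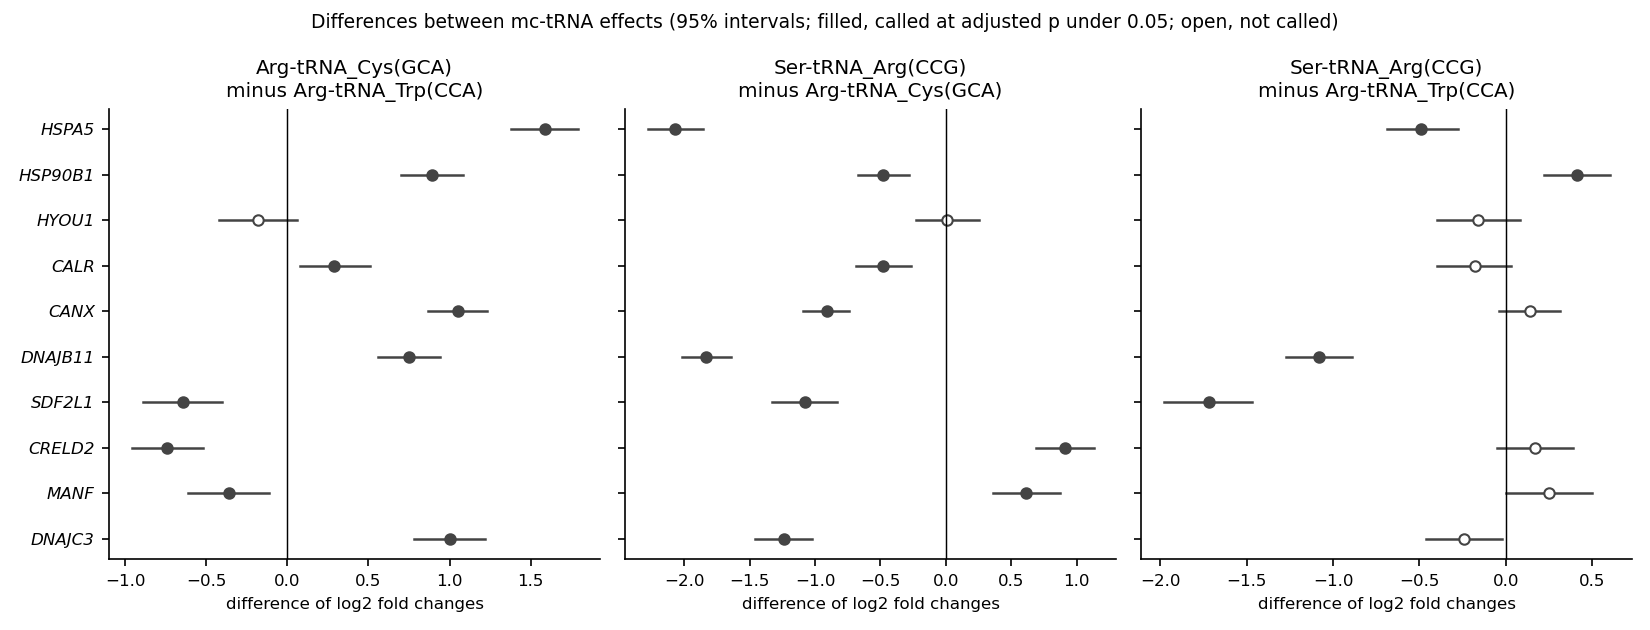
Difference between the log2 fold changes of 2 mc-tRNAs for each chaperone mRNA, with 95% intervals. Filled points were called at an adjusted p under 0.05 and open points were not. Each mc-tRNA was measured with its own reporter, so tRNA and reporter cannot be told apart. In the left panel HSPA5 stands at 1.59 and CRELD2 at -0.74; with library totals CALR there, and CALR and HSP90B1 in the middle panel, would lie on the other side of 0, at -0.12, 0.03 and 0.03.

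The unequal changes altered the make-up of the chaperone mRNAs. Levels were set per kilobase of exon (RPKM) for this comparison between genes. The length was that of all annotated exons of a gene merged, from 1099 bases for SDF2L1 to 7694 for HYOU1. A transcript can be shorter, so ranks and shares between genes depend on this choice. HSPA5 made up 48.1 ± 1.16% of the summed RPKM of the 10 genes with Arg-tRNA_Cys(GCA), against 18.8 ± 0.529% with EGFP(R96C) alone (SD, n = 3 each). Its share was 34.7 ± 1.19% with Arg-tRNA_Trp(CCA), against 21 ± 0.586% with EGFP(R96W) alone, and 27.1 ± 0.153% with Ser-tRNA_Arg(CCG), against 21.4 ± 1% with EGFP(R65) alone. HSPA5 had the highest mean RPKM of the 10 in these 3 groups with an mc-tRNA. With Ser-tRNA_Arg(CCG) it averaged 485.8 ± 31.5 RPKM, close to HSP90B1 at 456.5 ± 27.6 RPKM. By library HSPA5 was at 508.7, 499 and 449.9 RPKM there, each above HSP90B1 in the same library, at 472.5, 472.4 and 424.6 RPKM. CANX was highest with EGFP(R65), EGFP(R96H) and EGFP(R96W) alone. CANX and CALR were close with EGFP(R96Q) alone, at 164.6 ± 3.9 and 163.3 ± 8.79 RPKM, and their order differed between libraries. With EGFP(R96C) alone they averaged 168.4 ± 5.58 and 174.1 ± 9.14 RPKM, and CALR was above CANX in each library. By RPKM, CRELD2 was lowest in all 10 groups, at 4.688 ± 0.352 RPKM with EGFP(R96W) alone. By CPM, SDF2L1 was below CRELD2 with EGFP(R96W) alone, at 15.8 ± 1.49 against 24.22 ± 1.82 CPM. It was above CRELD2 with Arg-tRNA_Cys(GCA), at 60.51 ± 3.37 against 46.53 ± 2.67 CPM. The ratio of HSPA5 to CANX in CPM was 1.88, 1.85 and 2.14 with Arg-tRNA_Cys(GCA), against 0.505, 0.509 and 0.482 with EGFP(R96C) alone. It was 1.35, 1.46 and 1.32 with Arg-tRNA_Trp(CCA), against 0.501, 0.499 and 0.534 with EGFP(R96W) alone, and 0.897, 0.884 and 0.859 with Ser-tRNA_Arg(CCG), against 0.48, 0.498 and 0.53 with EGFP(R65) alone. In the 15 libraries of the 5 reporters alone the ratio was 0.461 to 0.534, below every library with these 3 tRNAs. The ratio of SDF2L1 to CRELD2 went opposite ways: it was 0.268, 0.255 and 0.304 with Ser-tRNA_Arg(CCG), against 0.6, 0.619 and 0.676 with EGFP(R65) alone, but 1.27, 1.37 and 1.26 with Arg-tRNA_Cys(GCA), against 0.671, 0.837 and 0.751 with EGFP(R96C) alone. Ratios within a library do not depend on its scaling.

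**Figure D4:**
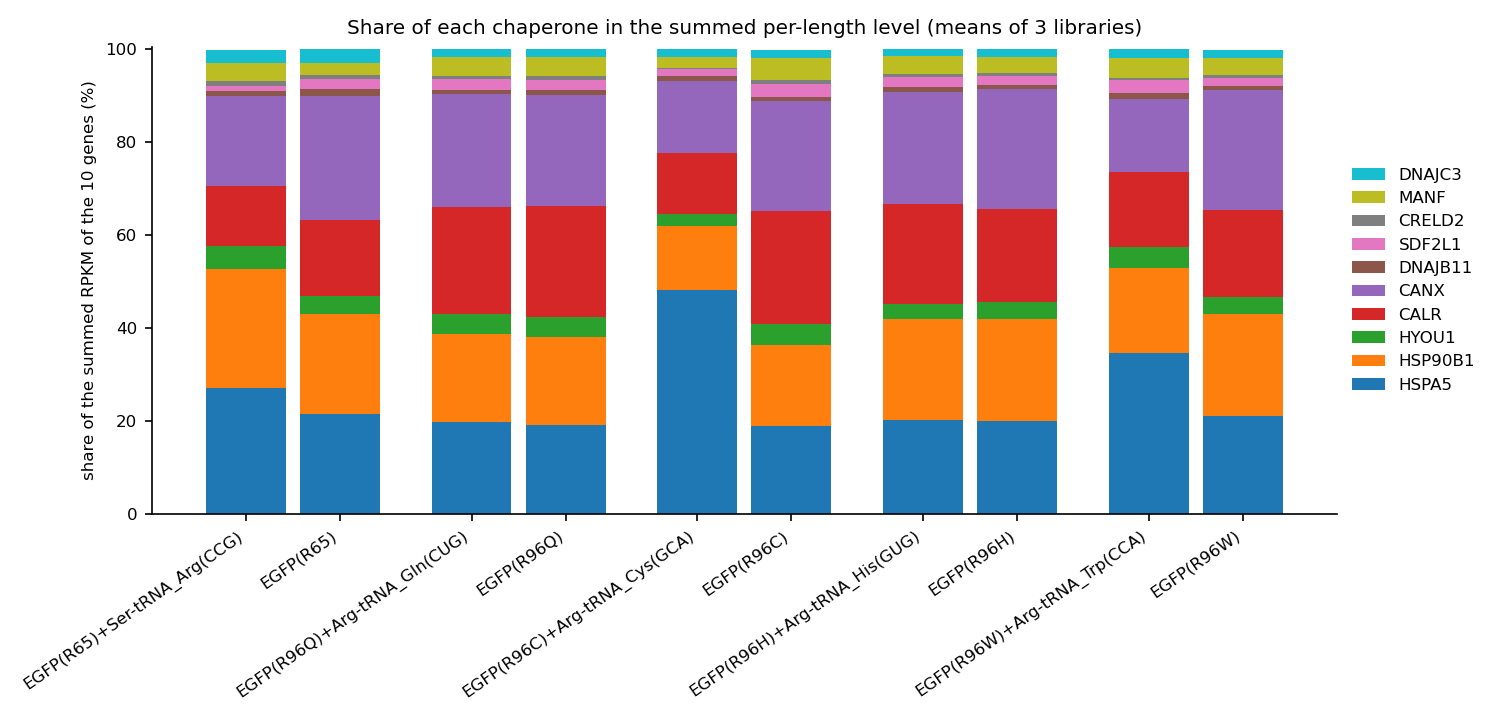
Share of each gene in the summed RPKM of the 10 chaperone genes, in percent, as the mean of 3 libraries per group. In each pair the left bar is the reporter with its mc-tRNA and the right bar the reporter alone. The HSPA5 block reaches 48.1% with Arg-tRNA_Cys(GCA) and 18.8% with EGFP(R96C) alone.

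The reporters alone also differed from each other. Among the 4 EGFP(R96) reporters an F-test called 8 of the 10 genes, all but HYOU1 (adjusted p = 0.578) and CALR (adjusted p = 0.282), where 54.7% of all genes were called. MANF (adjusted p = 0.0177) lost that call without the second EGFP(R96Q), the first EGFP(R96C) or the second EGFP(R96C) library (adjusted p = 0.0503, 0.0669 and 0.0989). HSP90B1 averaged 896.8 ± 53.2 CPM with EGFP(R96H) alone and 586 ± 18 CPM with EGFP(R96C) alone, and CANX averaged 1395 ± 82.6 CPM with EGFP(R96H) and 1026 ± 24.3 CPM with EGFP(R96Q). HYOU1 had the smallest ratio of highest to lowest mean among the 5 reporters alone, 1.11, from 221.1 ± 7.38 CPM with EGFP(R65) to 244.7 ± 6.83 CPM with EGFP(R96C). EGFP(R65) alone differed from the mean of the EGFP(R96) reporters alone for 4 of 10 genes, against 69.0% of all genes. DNAJC3 and DNAJB11 were higher with EGFP(R65), by 0.63 ± 0.06 (adjusted p = 5e-12) and 0.61 ± 0.05 (adjusted p = 2.46e-13), and MANF and CALR were lower, at -0.74 ± 0.07 (adjusted p = 5.3e-11) and -0.56 ± 0.06 (adjusted p = 2.19e-10). In this last comparison the reporter and a possible batch, given the spike-in counts of 0 in the EGFP(R65) libraries, cannot be told apart.

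Relatives of the 10 genes, most of them in other compartments, moved both ways with Ser-tRNA_Arg(CCG). HSPA1A (inducible cytosolic HSP70, which shares reads with the near-identical HSPA1B and is uncertain) fell by 1.48 ± 0.20 on the log2 scale (adjusted p = 2.77e-07), and HSPA9 (mitochondrial HSP70) fell by 0.63 ± 0.06 (adjusted p = 1.21e-11), while HSPA5 rose by 1.69. HSPA8 (constitutive cytosolic HSP70) stood at -0.16 ± 0.08, not called (adjusted p = 0.0765, and 0.00887 to 0.0388 in the 4 alternatives that called it). HSP90AA1 (cytosolic HSP90) was at -0.10 ± 0.08 (adjusted p = 0.256), HSP90AB1 rose by 0.47 ± 0.07 (adjusted p = 3.07e-07) and TRAP1 (mitochondrial HSP90) fell by 0.58 ± 0.06 (adjusted p = 1.26e-09). HSPH1, the cytosolic relative of HYOU1, fell by 0.28 ± 0.08 (adjusted p = 0.00432), and DNAJC7, a cytosolic relative of DNAJC3, fell by 0.51 ± 0.06 (adjusted p = 3.66e-09). CLGN, a relative of CANX, was called lower at -0.30 ± 0.12 (adjusted p = 0.0322, edgeR), a call lost with RLE factors (adjusted p = 0.0554). DNAJB1, the cytosolic relative of DNAJB11, rose by 0.52 ± 0.08 (adjusted p = 6.25e-07), CRELD1 by 0.56 ± 0.09 (adjusted p = 2.86e-06) and CDNF by 0.97 ± 0.19 (adjusted p = 6.03e-05).

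With Arg-tRNA_Cys(GCA) the cytosolic relatives rose, several of them by more than the ER genes. DNAJB1 rose by 7.27 ± 0.10 (adjusted p = 3.69e-35), HSPA1A by 7.02 ± 0.18 (adjusted p = 1.06e-23), HSPH1 by 5.81 ± 0.10 (adjusted p = 2.8e-31) and HSP90AA1 by 4.50 ± 0.09 (adjusted p = 1.1e-30). HSPA1A rose from a mean of 1.095 to 143.1 CPM. The near-identical HSPA1B rose from 277.1 to 13903 CPM, by 5.65 ± 0.21 (adjusted p = 4.33e-16, edgeR). HSPA8, at 2.50 ± 0.08 (adjusted p = 1.22e-24), stood below HSPA5 at 3.76, and TRAP1 fell by 0.45 ± 0.06 (adjusted p = 1.12e-07). With Arg-tRNA_Trp(CCA) the order was mixed, with HSPA1A at 3.23 ± 0.18 and HSPH1 at 2.16 ± 0.09, beside HSPA8 at 0.92 ± 0.08, HSP90AB1 at 1.08 ± 0.07 and TRAP1 at -0.27 ± 0.06 (adjusted p of 4.46e-20 to 0.000643). CRELD1 (-0.01 ± 0.09, adjusted p = 0.919) and CLGN, the germ cell relative of CANX (-0.03 ± 0.11, adjusted p = 0.883), were not called with Arg-tRNA_Trp(CCA), while CRELD2 and CANX rose. With Arg-tRNA_Cys(GCA), CLGN rose by 1.65 ± 0.12 (adjusted p = 8.25e-13, edgeR), beside CANX at 1.80. SDF2, the relative of SDF2L1, rose by 0.46 ± 0.08 with Arg-tRNA_Trp(CCA) (adjusted p = 2.22e-05). With Arg-tRNA_Cys(GCA) it rose by 0.30 ± 0.08 (adjusted p = 0.00255, edgeR), but was called lower with library totals, at -0.25 (adjusted p = 0.00609). CRELD1 was called lower with Arg-tRNA_Cys(GCA). That call was lost without the first EGFP(R96C) library (-0.21, adjusted p = 0.0821) or the second Arg-tRNA_Cys(GCA) library (-0.20, adjusted p = 0.0988).

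**Figure D5:**
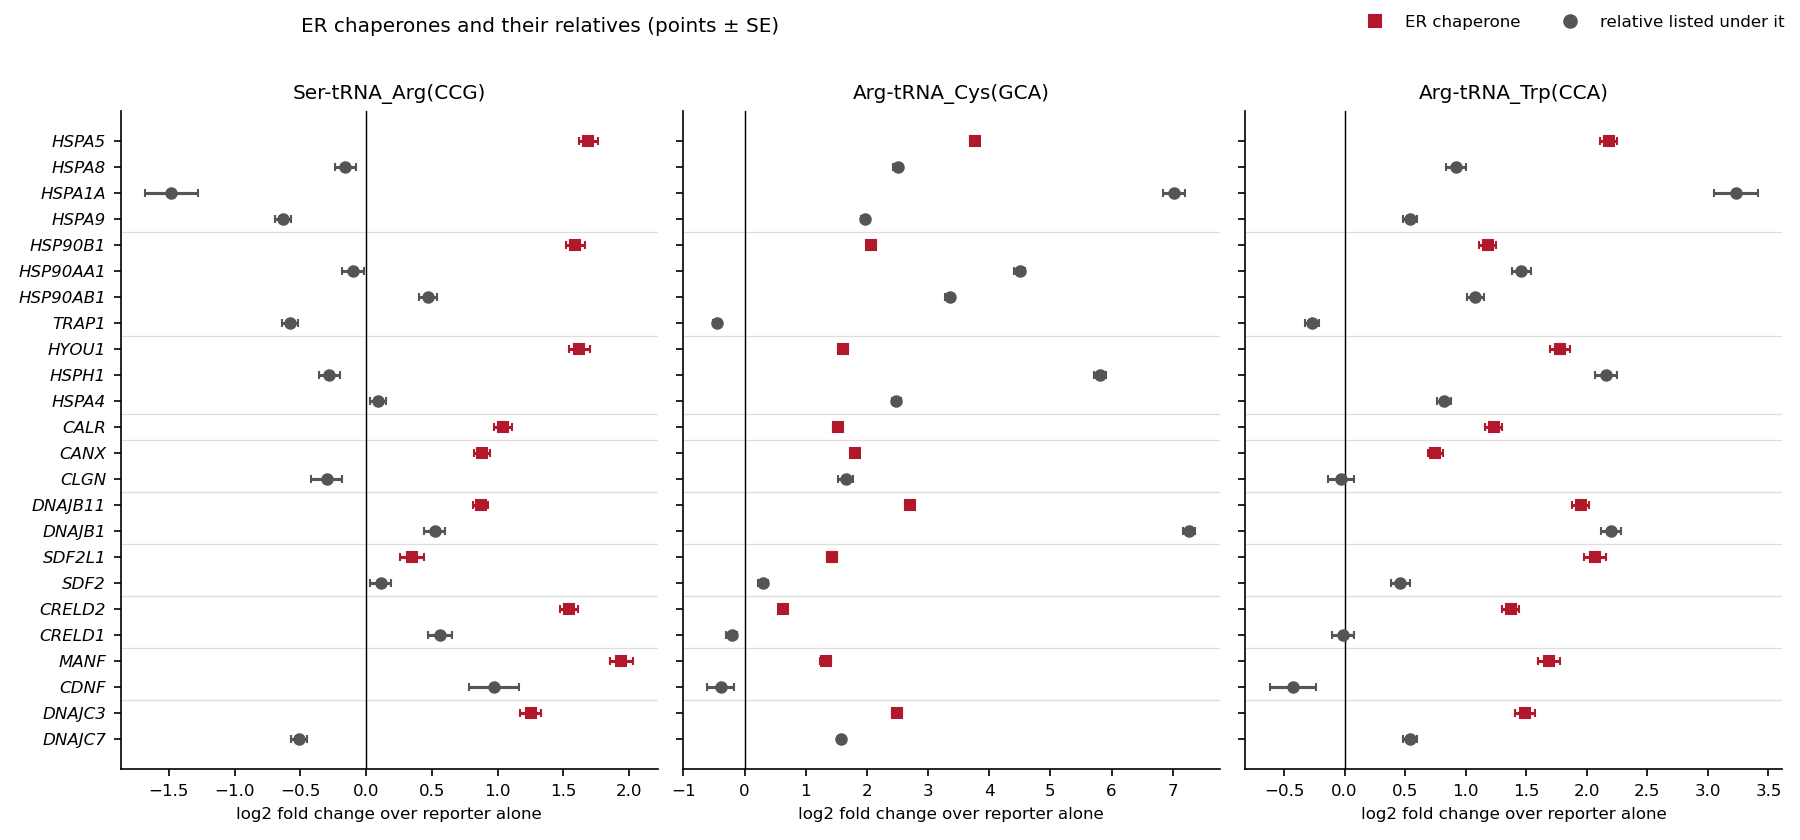
Log2 fold change over the reporter alone, ± 1 SE, of the 10 ER chaperones (squares) and, under each, of its relatives (circles), for the 3 mc-tRNAs with which all 10 ER chaperones rose. The x scales differ between panels. HSPA1A stands at -1.48 with Ser-tRNA_Arg(CCG), 7.02 with Arg-tRNA_Cys(GCA) and 3.23 with Arg-tRNA_Trp(CCA); with library totals CRELD2 with Arg-tRNA_Cys(GCA) would stand at 0.09 and SDF2 at -0.25.

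Other ER genes followed the chaperones in part. Of 36 other ER folding factors, 14 rose and 6 fell with Ser-tRNA_Arg(CCG), 26 rose and 6 fell with Arg-tRNA_Cys(GCA) (17 and 13 with library totals), and 18 rose and 2 fell with Arg-tRNA_Trp(CCA) (17 and 6 with library totals). The median change of these 36 was 0.08, 0.63 and 0.25, beside -0.02, -0.04 and -0.03 over all genes. Of all genes, 26.6% rose and 30.7% fell with Ser-tRNA_Arg(CCG), 30.2% and 30.5% with Arg-tRNA_Cys(GCA), and 20.7% and 21.7% with Arg-tRNA_Trp(CCA). The shares were 0.273% and 0.278% with Arg-tRNA_Gln(CUG), and 1.56% and 0.950% with Arg-tRNA_His(GUG). By library totals, 3143 of 22321 genes rose with Arg-tRNA_Cys(GCA), among 15544 called, and 3197 with Arg-tRNA_Trp(CCA), among 10173 called. PDIA4, a protein disulfide isomerase, rose by 2.64 ± 0.07 with Ser-tRNA_Arg(CCG) (adjusted p = 4.82e-26) and 1.94 ± 0.07 with Arg-tRNA_Trp(CCA) (adjusted p = 1.98e-22). DNAJB9 (ERdj4), another J-domain partner of HSPA5, rose by 3.47 ± 0.11 with Arg-tRNA_Cys(GCA) (adjusted p = 4.88e-23), and SERPINH1, the collagen chaperone HSP47, by 4.64 ± 0.10 (adjusted p = 4.74e-26). Of 20 genes of ER-associated degradation, 13 rose and 3 fell with Ser-tRNA_Arg(CCG), 16 rose and 2 fell with Arg-tRNA_Cys(GCA) (11 and 5 with library totals), and 17 rose with Arg-tRNA_Trp(CCA), where the other 3 were not called. HERPUD1, a membrane component of that pathway, rose by 1.56 ± 0.08 (adjusted p = 4.63e-18), 3.72 ± 0.09 (adjusted p = 5.31e-29) and 2.11 ± 0.08 (adjusted p = 2.7e-21) with these tRNAs. Of 14 sensors and factors of the unfolded protein response, 7 rose and 3 fell with Ser-tRNA_Arg(CCG), and 10 rose and 2 fell with each of Arg-tRNA_Cys(GCA) (9 and 5 with library totals) and Arg-tRNA_Trp(CCA). TRIB3, a pseudokinase induced downstream of EIF2AK3, fell by 1.33 ± 0.22 with Ser-tRNA_Arg(CCG) (adjusted p = 1.73e-05) and rose by 3.83 ± 0.23 with Arg-tRNA_Cys(GCA) (adjusted p = 1.91e-12). Of 13 cytosolic heat shock genes, 4 rose and 5 fell with Ser-tRNA_Arg(CCG) (median -0.10), and all 13 rose with Arg-tRNA_Cys(GCA) (median 4.55) and Arg-tRNA_Trp(CCA) (median 1.75). With Arg-tRNA_Gln(CUG), 0 of the 36 folding factors, 0 of the 20 degradation genes and 0 of the 14 response genes were called by edgeR or DESeq2 (5, 3 and 3 at an unadjusted p under 0.05, edgeR). HSPA8, HSP90AA1 and DNAJB1 were the 3 heat shock genes that rose there, and 1 to 2 did so on leaving out any 1 of the 6 libraries, with 1 left without the second EGFP(R96Q) or the second Arg-tRNA_Gln(CUG) library, and 1 also without the EGFP(R65) libraries. With Arg-tRNA_His(GUG), 0 folding factors and 0 degradation genes were called by edgeR or DESeq2 (4 and 6 unadjusted, edgeR; library totals called 2 degradation genes lower). MBTPS2, a protease that releases ATF6 from the membrane, fell by 0.29 ± 0.07 (adjusted p = 0.0112), a call lost without the third EGFP(R96H) library (adjusted p = 0.127) or the first Arg-tRNA_His(GUG) library (adjusted p = 0.151). Of the heat shock genes, 8 rose with Arg-tRNA_His(GUG) and 11 by DESeq2, but 1 without the third EGFP(R96H) or the first Arg-tRNA_His(GUG) library, and 5 without the second library of either group.

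The genes outside the 10 chaperones whose level over the 30 libraries was most like that of HSPA5, by Pearson's correlation of log2 CPM among 10215 genes, were ARCN1 (r = 0.995), TMEM39A (0.994), HERPUD1 (0.994), SEC24D (0.994) and SLC39A9 (0.987). ARCN1 is a subunit of the COPI coat and SEC24D one of the COPII coat. ARCN1 changed by 0.73 with Ser-tRNA_Arg(CCG), 1.63 with Arg-tRNA_Cys(GCA) and 0.82 with Arg-tRNA_Trp(CCA), so the likeness is one of pattern and not of size. Among the same genes, most like CANX were HERPUD1 (0.983), ARCN1 (0.982), TMEM39A (0.981), SND1 (0.980) and FCF1 (0.979), and HSPA5 itself had r = 0.98 with CANX. The libraries fall into 10 groups, so these values are descriptions of shared group differences, and no test was made.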

How the data were processed

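Messenger RNA was measured in 30 libraries, 3 in each of 10 groups. Each deposited file gives unnormalised read counts by gene, made by the authors with STAR, SAMtools and featureCounts on hg38, per the submitters' processing notes; for versions, annotation and strand setting, nothing is stated in the sources. The 10 genes were matched by Ensembl identifier with the version dropped; 9 of 10 had the same version in GENCODE release 29, which gave exon lengths. The 92 ERCC rows entered no test. The test of these counts was that of edgeR 4.0.16, run under R 4.3.3 (TMM factors, filterByExpr, robust quasi-likelihood fit, 10 group means, 20 residual degrees of freedom), Benjamini-Hochberg adjusted over all 22321 genes tested. The biological coefficient of variation was 8.24%. Replicate pairs differed by 2.08 to 36.7 chi-square per degree of freedom, so none counted as 1 library. Floors cover counting error only (3 counts). The fit was tested on simulated data. Alternatives were RLE factors, library totals, no low-count filter, DESeq2 1.42.0, fits without the EGFP(R65) libraries or of only the 6 libraries compared, a replicate block, and leaving out each library. The members and lists were chosen with earlier results of these data known. Named genes are the 10 members, their relatives, the 2 largest called changes of each list in each comparison, of which a selection is printed, and the 5 genes most like HSPA5 and CANX among genes with a mean of at least 10 CPM. CALR3 did not pass the filter. Protein sequences were not used here.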

Additional observations from a re-analysis of the deposited data

Results flagged for a closer look

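For each of the 10 chaperone genes the mc-tRNA effect differed between the 5 reporters, by an F-test on the 4 differences between effects in the fit of all libraries (edgeR, adjusted over all genes tested). The adjusted p was 2.87e-26 for HSPA5, 4.67e-24 for DNAJB11, 7.2e-21 for DNAJC3, 7.99e-21 for HSP90B1 and 3.35e-19 for CANX. It was 3.06e-17 for HYOU1, 6.53e-17 for SDF2L1, 2.23e-16 for CRELD2, 4.19e-16 for MANF and 1.33e-15 for CALR. The effects behind these tests run from 0.05 to 3.76 for HSPA5 and from -0.05 to 1.78 for HYOU1, and 72.5% of all genes passed the same test.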

How the results depend on the processing

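The 10 genes stayed called with Ser-tRNA_Arg(CCG) and Arg-tRNA_Trp(CCA) under every alternative run, and with Arg-tRNA_Cys(GCA) under all but library totals, where CRELD2 was not called and 9 remained. With Arg-tRNA_Gln(CUG) 0 were called under every alternative; with Arg-tRNA_His(GUG) a fit of only the 6 libraries compared called 3. Leaving out 1 library at a time changed none of these 5 counts, nor the 10 of the F-test or the 4 between EGFP(R65) and EGFP(R96) reporters alone, and gave 7 to 8 among the EGFP(R96) reporters alone.

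With library totals the HSP90B1 change with Arg-tRNA_His(GUG) was -0.01 (without the filter -0.002, leaving out 1 library -0.04 to 0.04), the Ser-tRNA_Arg(CCG) minus Arg-tRNA_Cys(GCA) difference was 0.03 for HSP90B1 and 0.03 for CALR, the CALR difference between Arg-tRNA_Cys(GCA) and Arg-tRNA_Trp(CCA) was -0.12, and SDF2 with Arg-tRNA_Cys(GCA) was -0.25. Leaving out 1 library gave -0.07 to 0.06 for CRELD2 with Arg-tRNA_Gln(CUG) and -0.04 to 0.10 for HYOU1 between Ser-tRNA_Arg(CCG) and Arg-tRNA_Cys(GCA). Without the filter the CALR difference between Arg-tRNA_Cys(GCA) and Arg-tRNA_Trp(CCA) was 0.20 (adjusted p = 0.111), and without the EGFP(R65) libraries 0.24 (adjusted p = 0.065). Library totals also brought calls for HYOU1 between Ser-tRNA_Arg(CCG) and Arg-tRNA_Cys(GCA) (0.52) and between Arg-tRNA_Cys(GCA) and Arg-tRNA_Trp(CCA) (-0.59, and -0.27 without the filter), and for CANX (0.23), CRELD2 (0.26) and MANF (0.35) between Ser-tRNA_Arg(CCG) and Arg-tRNA_Trp(CCA). The cause was not tested. Of the called genes, the share that rose was 20.2% with library totals against 49.8% with TMM for Arg-tRNA_Cys(GCA), 31.4% against 48.8% for Arg-tRNA_Trp(CCA), 38.3% against 49.6% for Arg-tRNA_Gln(CUG) and 48.4% against 62.1% for Arg-tRNA_His(GUG). Over all genes, Arg-tRNA_Gln(CUG) had 123 calls, but 244 with DESeq2, 196 without the filter and 66 with only its 6 libraries, and Arg-tRNA_His(GUG) had 560, but 927 with DESeq2, 369 without the EGFP(R65) libraries and 1911 with only its 6.

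By the labels, libraries with the same replicate number share only a number. Their deviations correlated at -0.0772 to 0.14, with 4 of 15 pairs over 0.1. A fit with a replicate block called the same counts of the 10 genes (10, 0, 10, 0 and 10), and over all genes 231 with Arg-tRNA_Gln(CUG), 1124 with Arg-tRNA_His(GUG), 13077 with Ser-tRNA_Arg(CCG), 13766 with Arg-tRNA_Cys(GCA) and 9888 with Arg-tRNA_Trp(CCA). The block brought a call for DNAJC3 between Ser-tRNA_Arg(CCG) and Arg-tRNA_Trp(CCA) (-0.24, adjusted p = 0.0319). In 9 of 15 cases, including the 3 of Arg-tRNA_Trp(CCA), a library correlated best with its own number, a hint from the data and not from the design.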

Other observations

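With Ser-tRNA_Arg(CCG), the third library had the lowest level of 9 of the 10 genes and the highest of SDF2L1, as did the third library with Arg-tRNA_Trp(CCA). SDF2L1 stood at 23.23 CPM in that Ser-tRNA_Arg(CCG) library beside 21.53 and 22.78 CPM, and at 72.07 CPM in that Arg-tRNA_Trp(CCA) library beside 63.25 and 63.66 CPM. The Ser-tRNA_Arg(CCG) values rest on 960 counts beside 896 and 1022, so the step from 22.78 to 23.23 CPM is within counting error. The summed level of the 10 genes was 7638 CPM in the third Ser-tRNA_Arg(CCG) library beside 8401 and 8513 CPM, and 8748 CPM in the third Arg-tRNA_Trp(CCA) library beside 10694 and 10767 CPM. With Arg-tRNA_Cys(GCA) it was 15701 to 16592 CPM, and in the reporters alone 2958 to 4033 CPM.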
